A study of Mus musculus with 10 samples.

Results

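The expression of 7 genes for bile acid transport and for the bile acid receptor FXR was followed in single-cell RNA-seq data from mouse intestinal organoids and colonic crypts. The genes were chosen by name, as Slc10a2, Fabp6, Slc51a, Slc51b, Nr1h4, Nr0b2 and Fgf15, from 31053 genes in the count matrices, and their unique molecular identifiers (UMIs, 1 per captured transcript) were summed per library and per cell class. Each of the 7 genes was detected in organoids and in colon.

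The organoids were grown from crypts of the proximal small intestine. ENR-organoids (3 libraries, at passages 2, 7 and 3) received EGF, the BMP antagonist Noggin and the Wnt agonist R-Spondin 1. Hyper-organoids (3 libraries, at passages 1, 6 and 3) received EGF and FGF2 with conditioned medium holding R-Spondin 1, together with the BMP receptor inhibitor LDN193189, GSK-3 Inhibitor XV, the kinase inhibitor Pexmetinib, the histone deacetylase inhibitor VPA and the EZH2 inhibitor EPZ6438. The -VE-organoids (2 libraries, at passages 1 and 6) had the Hyper medium lacking both VPA and EPZ6438, so EGF and R-Spondin 1 were common to all organoids. Culture series were inferred from the sample codes in the titles, which do not name a series. ENR 1, -VE 1 and Hyper 1 were taken as 1 series and ENR 2, -VE 2 and Hyper 2 as another. ENR 3 and Hyper 3, whose titles give primary crypts as origin, were taken as the last series. Hyper and -VE cultures of the first pair of series originated from ENR-organoids, and nothing in the labels shows that the series came from separate mice, so p-values measure the spread between these libraries. Colonic crypts came from normal mice and from mice treated with dextran sulfate sodium (DSS), a sulfated polysaccharide that injures the colonic epithelium, with 1 library each and therefore no test.

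Bile acids are made in the liver, released into the gut and taken back at the end of the small intestine. There the apical transporter Slc10a2 (ASBT) brings them into the enterocyte, the small cytosolic protein Fabp6 binds them, and a basolateral pair, Slc51a and Slc51b (OSTα and OSTβ), lets them out towards the portal blood. Inside the cell they activate the nuclear receptor Nr1h4 (FXR), whose classical targets include Fabp6, both Slc51 genes, the corepressor Nr0b2 (SHP) and the hormone Fgf15, which tells the liver to lower bile acid synthesis.

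The authors had kept 25204 cells, of which 22139 were from organoids and 3065 from colon. Organoid libraries held 1983 to 4293 kept cells with median depths of 38173.5 to 50651.5 UMIs per cell, and the normal and DSS colon libraries held 1132 and 1933 cells with 18374.5 and 16051 UMIs. Only 79 kept cell barcodes occurred in more than 1 library, at most 5 for any pair of libraries. Deposited class names were checked against marker genes, and the markers of the own class were highest in every library with 20 cells or more for the transit amplifying (TA), enterocyte, enterocyte progenitor, enteroendocrine, goblet and Paneth classes, but in 5 of 8 libraries for the stem class. Those 5 were the ENR and -VE libraries, and in every Hyper library the summed stem markers were slightly higher in TA than in stem cells. Stem and TA cells had 923 and 952 CPM in Hyper 1, 295 and 300 in Hyper 2 and 268 and 283 in Hyper 3. ENR stem cells had 3157 to 4560 CPM. Hyper-organoids held 7, 58 and 21 enterocytes per library and ENR-organoids 214, 340 and 292.

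The members lie on 7 chromosomes of GRCm38, and all are protein-coding. The uptake gene Slc10a2 spans chr8:5083219-5105351, Fabp6 chr11:43596049-43601540, Slc51a chr16:32474504-32487879, Slc51b chr9:65412714-65422955 and Nr1h4 chr10:89454234-89533585, all on the minus strand. Nr0b2 at chr4:133553376-133556536 and Fgf15 at chr7:144896531-144900953 lie on the plus strand.

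Promoters of 300 bases, 250 before and 50 after the annotated start, were taken from RefSeq (GRCm38.p6) for 6 of the 7 members. They are shown for the genes with a match to either of a pair of motifs and for Nr0b2, the member that rose in Hyper-organoids, so that the sequences can be read beside the levels. Searched with up to 2 mismatches were the FXR inverted repeat AGGTCANTGACCT, which reads the same on both strands and was found in 1.14% of 32851 promoters of this length, and the HNF1 site GTTAATNATTAAC, also the same on both strands and found in 1.36%. Capitals mark a single match per window, and sequences run 5′ to 3′ on the strand of the gene.
Slc10a2, chr8:5105238-5105537, minus strand: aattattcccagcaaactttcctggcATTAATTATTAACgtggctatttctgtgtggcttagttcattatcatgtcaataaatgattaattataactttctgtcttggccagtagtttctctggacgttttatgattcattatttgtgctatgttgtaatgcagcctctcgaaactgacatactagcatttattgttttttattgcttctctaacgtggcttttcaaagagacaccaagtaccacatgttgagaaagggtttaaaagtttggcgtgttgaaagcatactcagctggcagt
Fabp6, chr11:43601513-43601812, minus strand: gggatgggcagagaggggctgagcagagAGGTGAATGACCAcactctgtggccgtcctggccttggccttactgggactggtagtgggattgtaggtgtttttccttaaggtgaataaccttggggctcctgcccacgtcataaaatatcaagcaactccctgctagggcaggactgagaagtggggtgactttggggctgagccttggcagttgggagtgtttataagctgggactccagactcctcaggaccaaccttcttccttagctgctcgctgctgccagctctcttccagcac
Nr1h4, chr10:89506609-89506908, minus strand: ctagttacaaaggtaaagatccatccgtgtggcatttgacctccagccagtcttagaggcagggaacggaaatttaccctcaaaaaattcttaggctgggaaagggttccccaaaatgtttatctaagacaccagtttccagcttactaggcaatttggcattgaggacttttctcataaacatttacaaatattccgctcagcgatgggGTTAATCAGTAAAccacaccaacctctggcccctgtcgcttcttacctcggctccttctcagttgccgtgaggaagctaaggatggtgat
Nr0b2, chr4:133553126-133553425, plus strand, with neither motif: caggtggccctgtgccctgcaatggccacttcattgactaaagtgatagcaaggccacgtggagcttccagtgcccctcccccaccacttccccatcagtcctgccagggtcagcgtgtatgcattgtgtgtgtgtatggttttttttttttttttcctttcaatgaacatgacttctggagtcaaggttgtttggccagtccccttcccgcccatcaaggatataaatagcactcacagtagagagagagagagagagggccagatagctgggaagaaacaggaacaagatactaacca
The Fabp6 promoter held AGGTGAATGACCA, an FXR repeat with 2 mismatches that began 222 bases before the start. Nearer the start the same window held aggtgaataacct, also with 2 mismatches, which is left in small letters. In Slc10a2, ATTAATTATTAAC matched the HNF1 site with 1 mismatch, beginning 224 bases before the start. The Nr1h4 window held GTTAATCAGTAAA with 2 mismatches, 40 bases before a start that lies 26927 bases inside the annotated gene end. No match was found in the windows of Slc51a, Slc51b and Nr0b2. A match of letters is a description of these windows, and binding was not measured.

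In whole ENR-organoid libraries the members were rare transcripts. Levels are given as CPM, the UMIs of a gene scaled to a common total of UMIs per library or class, and because 3′ tags are not scaled to a common capture rate, a level is compared between libraries and not between genes. In sums over a library, fewer cells of a type and less RNA per cell cannot be told apart. Differences between media were tested with the quasi-likelihood test of edgeR over 16037 genes, with Benjamini-Hochberg adjusted p, and a gene was called where adjusted p was under 0.05 and the change at least 2-fold. The 3 comparisons share libraries.

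Slc10a2, the apical uptake transporter, stood at 0.525, 0.732 and 0.539 CPM in the ENR libraries, 0.172 and 0.129 in the -VE libraries and 0.0289, 0.0703 and 0.188 in the Hyper libraries. Every ENR library lay above every library of the other media, and the -VE values fell within the Hyper range. Slc10a2 fell by 2.85 on the log2 scale in Hyper- against ENR-organoids (SE 0.54, adjusted p = 0.00236), and by 3.69 without Hyper 3. The other contrasts did not pass, with -0.87 for Hyper against -VE (adjusted p = 0.277) and -1.99 for -VE against ENR (adjusted p = 0.0788). The last of these depended on the fit, since its adjusted p was 0.0271 with DESeq2, 0.0113 with only both groups fitted, 0.0264 without Hyper 1 and 0.0263 without Hyper 3. Without Hyper 3 the Hyper against -VE contrast was -1.71 (adjusted p = 0.0240).

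Fabp6, the ileal bile acid binding protein, was found at 1.85, 1.64 and 2.02 CPM in the ENR, 1.17 and 0.841 in the -VE and 0.217, 0.0563 and 0.0886 in the Hyper libraries. The 3 ranges did not overlap, and the order was ENR, -VE, Hyper. Fabp6 fell by 4.03 in Hyper- against ENR-organoids (SE 0.44, adjusted p = 0.000123) and by 3.17 in Hyper- against -VE-organoids (SE 0.45, adjusted p = 0.000945). Leaving out Hyper 1, the highest Hyper library, gave -4.81 and -3.95. The -VE against ENR contrast of -0.86 did not pass (SE 0.42, adjusted p = 0.256).

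The export pair works as a heteromer. Slc51a, the larger subunit, had 7.34, 10.2 and 10.7 CPM in the ENR, 1.49 and 1.16 in the -VE and 0.137, 1.13 and 0.698 in the Hyper libraries. Slc51b, its partner, stood at 3.15, 3.91 and 3.68 CPM, at 1.05 and 0.594, and at 0.325, 0.675 and 0.643 in the same libraries. For both genes every ENR library was higher than any other organoid library, and for Slc51b the -VE and Hyper ranges overlapped.

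Slc51a fell by 3.97 in Hyper- against ENR-organoids (SE 0.59, adjusted p = 0.000651; -4.70 without Hyper 2), and Slc51b fell by 2.84 (SE 0.33, adjusted p = 0.000174). In -VE- against ENR-organoids Slc51a fell by 2.83 (SE 0.65, adjusted p = 0.0372) and Slc51b fell by 2.12 (SE 0.37, adjusted p = 0.0160). These calls were not stable to single libraries. Slc51a lost its call without any 1 of the 5 ENR and -VE libraries, with adjusted p from 0.0754 to 0.237, and Slc51b lost it without ENR 2 (adjusted p = 0.0615) or -VE 2 (adjusted p = 0.121). Between Hyper- and -VE-organoids the differences of -1.14 for Slc51a (adjusted p = 0.157) and -0.72 for Slc51b (adjusted p = 0.127) did not pass. They did so for Slc51a without Hyper 2 (-1.87, adjusted p = 0.0407) and for Slc51b with all barcodes of the matrices included (-1.06, adjusted p = 0.0259).

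Nr1h4 is the bile acid receptor itself. It stood at 10.8, 11.8 and 9.82 CPM with ENR medium, 5.65 and 4.65 with -VE medium and 7.24, 8.42 and 8.86 with Hyper medium, so that the 3 ranges were separate and the -VE libraries lowest. Nr1h4 fell by 1.06 in -VE- against ENR-organoids (SE 0.13, adjusted p = 0.00572), a call lost without ENR 2 (-0.99, under 2-fold) or -VE 2 (adjusted p = 0.0546). The differences of -0.53 between Hyper and ENR (SE 0.12, adjusted p = 0.00497) and 0.53 between Hyper and -VE (SE 0.13, adjusted p = 0.0120) were under 2-fold and were not called.

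Nr0b2, the corepressor that FXR induces, was the member that moved upwards. Its level was 2.82, 2.37 and 3.16 CPM for ENR, 3.34 and 1.44 for -VE and 5.48, 7.73 and 7.06 for Hyper libraries. All Hyper libraries lay above all others, while -VE 1 was above and -VE 2 below the ENR range. Nr0b2 rose by 1.15 in Hyper- against ENR-organoids (SE 0.30, adjusted p = 0.0106) and by 1.37 against -VE-organoids (SE 0.34, adjusted p = 0.0120). The second call rested on -VE 2, without which the difference was 0.89 and under 2-fold, and it was 2.11 without -VE 1. The value for -VE against ENR was -0.22 (adjusted p = 0.745).

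Fgf15, the enterokine, was near the lower limit of detection. The ENR libraries held 0.175, 0.325 and 0.370 CPM, the -VE libraries 0.246 and 0.247 and the Hyper libraries 0.310, 0.310 and 0.487, from 90, 72 and 131 UMIs per group. The ranges overlapped for ENR with each of the other media, and none of the 3 contrasts passed (0.20, 0.43 and -0.23, adjusted p = 0.644, 0.385 and 0.766).

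In all, 5 of the 7 members were called in Hyper- against ENR-organoids, 4 lower and 1 higher, where 4.75% of all genes tested were called lower and 18.2% higher. In Hyper- against -VE-organoids 1 was called lower and 1 higher, where 2.51% and 16.1% of genes were called. In -VE- against ENR-organoids 3 were called lower and none higher, where 1.2% and 1.35% were called. The median change of the members was -2.84, -0.72 and -1.06 on the log2 scale in these comparisons, and that of all genes -0.0073, 0.014 and 0.0041. Scaling by library size alone moved the median of all genes by 0.126 and 0.137 in both Hyper contrasts and by -0.0077 in the other, and changed no sign among the called members.

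**Figure D1:**
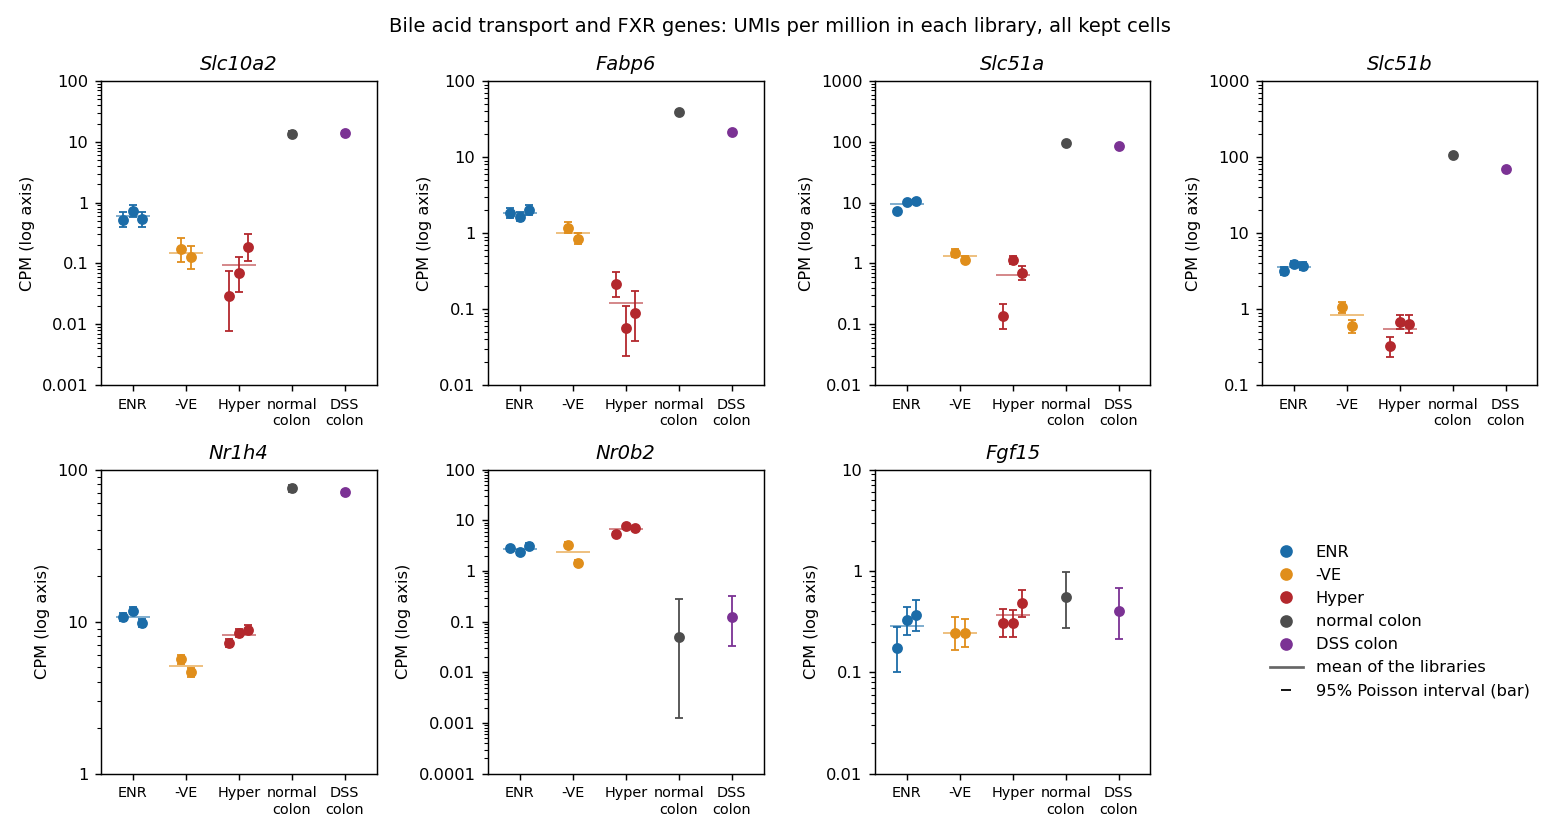
Level of each of the 7 genes (CPM, log axis) in each organoid and colon library; points are libraries with 95% Poisson intervals and lines are group means. ENR libraries lie above all Hyper libraries for Slc10a2, Fabp6, Slc51a, Slc51b and Nr1h4, and the Hyper libraries, at 5.48 to 7.73 CPM, lie above all others for Nr0b2.

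The enterocyte content of the libraries also differed between media. The summed CPM of 4 enterocyte markers (Fabp1, Apoa1, Reg1 and Rbp2) was 1684 to 2340 in ENR, 706 and 676 in -VE and 134, 585 and 364 in Hyper libraries, with none of the 4 at 0. In ENR-organoids the enterocyte class made up 11.9% of cells and held 63.01% of the Slc51a, 74.4% of the Slc51b and 62.4% of the Slc10a2 UMIs. The same class held 30.7% of the Nr1h4, 10.5% of the Fabp6 and 6.38% of the Nr0b2 UMIs, so these genes were drawn mostly from other classes. In Hyper-organoids 1.03% of cells were enterocytes, and they still held 55.6% of the Slc51a, 32.2% of the Slc51b and 54.8% of the Slc10a2 UMIs.

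The members were therefore described within each class. Classes were defined by the authors from these cells, so differences between classes are given as values with no test. In the 3 ENR libraries Slc51a reached 59.1, 61.7 and 62.2 CPM in enterocytes. Its mean was 8.29 ± 0.871 CPM in enterocyte progenitors (SD, n = 3), 1.86 ± 0.401 in TA cells, 1.25 ± 0.321 in stem cells and 0.641 ± 0.386 in goblet cells. Slc51b was 27.6 ± 0.543 CPM in enterocytes and 1.71 ± 0.373 in progenitors, and Slc10a2 was 3.90 ± 0.722 and 0.334 ± 0.0730. These 3 transporter genes had their highest level in the enterocyte class, and the gaps to the progenitors exceeded the spread between libraries.

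Fabp6 showed another pattern. Its level in ENR-organoids was 2.32 ± 0.264 CPM in progenitors, 1.99 ± 0.216 in enterocytes, 1.75 ± 0.127 in TA cells, 1.25 ± 0.177 in stem cells and 1.16 ± 0.773 in goblet cells (SD, n = 3), with no UMI in 212 enteroendocrine cells, which allows up to 0.814 CPM (3 counts of the class total). The spreads of progenitors and enterocytes, of enterocytes and TA cells, and of stem and goblet cells overlapped. Nr1h4 was detected in every class with at least 20 cells in a library, at 34.9 ± 5.45 CPM in enterocytes, 12.02 ± 2.64 in goblet, 11.6 ± 6.83 in enteroendocrine, 10.8 ± 1.58 in progenitor, 8.64 ± 4.55 in Paneth, 7.84 ± 1.96 in stem and 6.27 ± 0.836 in TA cells. Below the enterocytes the spreads of neighbouring classes overlapped.

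Nr0b2 had its highest mean in stem cells. The spread there overlapped that of progenitors in ENR-organoids and those of TA cells, goblet cells and enterocytes in Hyper-organoids. In ENR-organoids it was 4.43 ± 0.828 CPM in stem cells, 3.66 ± 0.683 in progenitors, 2.32 ± 0.264 in TA cells and 1.82 ± 0.415 in enterocytes, and no UMI was found in 126 Paneth cells, which allows up to 1.28 CPM. In Hyper-organoids it was 8.20 ± 1.57 in stem, 6.14 ± 1.17 in TA, 5.25 ± 2.01 in goblet and 3.17 ± 0.537 in enteroendocrine cells, and 4.10 ± 2.90 in enterocytes (n = 2). Single libraries differed from this order, with 4.23 CPM in progenitors and 4.11 in stem cells of ENR 1. Goblet cells of Hyper 1 stood at 7.54 CPM and its stem cells at 6.41. The Fgf15 level in ENR-organoids was 0.715 ± 0.191 CPM in enterocytes, 0.302 ± 0.188 in TA cells and 0.287 ± 0.137 in progenitors.

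**Figure D2:**
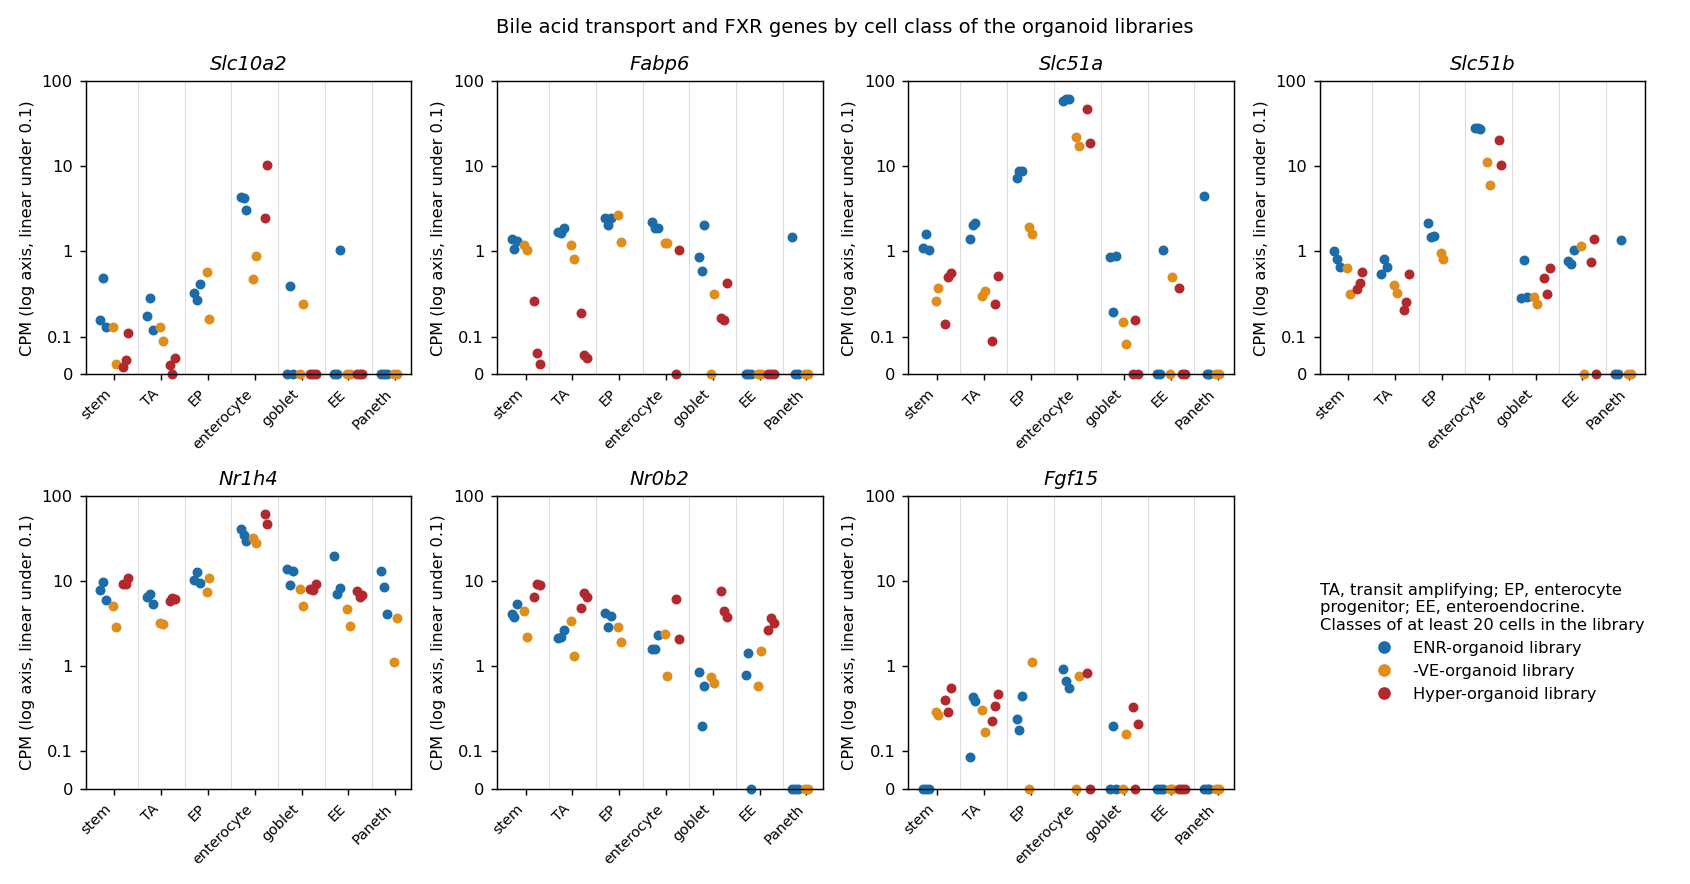
Level of each gene (CPM, log axis, linear under 0.1) by cell class and library, for classes with at least 20 cells in a library; colours stand for the media. Slc51a and Slc51b are highest in enterocytes in every library with at least 20 enterocytes (Hyper 1, with 7, has no enterocyte point), while Nr0b2 in ENR libraries is higher in stem cells than in enterocytes.

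At the level of single cells, Slc51a UMIs were found in 66.8%, 76.2% and 63.7% of ENR enterocytes (median 39061.5, 39846.5 and 32330.5 UMIs per cell). In goblet cells, which are not absorptive and serve as a measure of free RNA, the shares were 2.80%, 0.680% and 2.40% (median 31837, 31643 and 24335 UMIs). After each cell was thinned to 10000 UMIs the enterocyte shares were 37.1%, 44.3% and 40.9%, and the goblet shares were at most 0.840%. The enterocyte share stayed far above that of goblet cells at equal depth.

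Both subunits of the exporter were found together in 39.3%, 42.6% and 31.8% of ENR enterocytes, beside 29.7%, 37.4% and 25.3% given by the product of the single shares. Thinned, the joint shares were 12.4%, 11.01% and 9.67% and the products 7.78%, 9.22% and 7.30%. Of the ENR enterocytes with Slc51b, 88.4%, 86.8% and 80.2% also held Slc51a. The ratio of Slc51b to Slc51a UMIs was 0.475, 0.450 and 0.434 in ENR enterocytes, 0.504 and 0.353 in -VE enterocytes and 0.430 and 0.556 in the enterocytes of Hyper 2 and Hyper 3, so the ranges of the media overlapped in enterocytes. Over all kept cells and in TA cells the ENR range lay below both others. Over all kept cells the ratio was 0.344 to 0.429 in ENR, 0.513 and 0.707 in -VE and 0.596 to 2.37 in Hyper libraries, and in TA cells it was 0.310 to 0.404, 0.943 and 1.33, and 1.04 to 2.29, with 7 to 23 Slc51a UMIs in the TA cells of a Hyper library. In ENR progenitors the ratio was lower, at 0.293, 0.170 and 0.169, all below the range of ENR enterocytes.

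Contrasts within classes compared cells under the same deposited class name. The study placed the stem cells of Hyper- and ENR-organoids in different clusters, and likewise the TA cells, so a contrast within either class sets cells of different clusters side by side. Goblet levels, given here as the measure of free RNA, also differed between media. Slc51a in goblet cells averaged 0.641 CPM in ENR (7 UMIs), 0.113 in -VE (2 UMIs) and 0.0524 in Hyper libraries (1 UMI), Slc51b 0.453, 0.267 and 0.480, and Fabp6 1.16, 0.160 and 0.248. The low levels of these genes in stem and TA cells stand beside those values, and the part of free RNA in them was not tested. In stem cells Fabp6 stood at 1.39, 1.05 and 1.31 CPM in ENR, 1.19 and 1.04 in -VE and 0.261, 0.0578 and 0.0276 in Hyper libraries, and every Hyper value was below all others. Fabp6 fell by 3.44 in Hyper against ENR stem cells (SE 0.60, adjusted p = 0.00124) and by 3.27 against -VE (SE 0.59, adjusted p = 0.00186), or by 4.73 and 4.56 without Hyper 1. Slc51a in stem cells was 1.08, 1.62 and 1.05 CPM in ENR, 0.258 and 0.373 in -VE and 0.141, 0.501 and 0.551 in Hyper libraries. It fell by 1.78 in Hyper against ENR (SE 0.51, adjusted p = 0.0160), a call lost without ENR 2 (adjusted p = 0.0797), and was -2.37 with cells thinned to 10000 UMIs. Slc51b differed by -0.997 in the same contrast and did not pass (adjusted p = 0.0707).

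Nr1h4 in stem cells was 7.82, 9.81 and 5.89 CPM in ENR, 5.13 and 2.88 in -VE and 9.08, 9.26 and 10.9 in Hyper libraries. The Hyper and ENR ranges overlapped (0.19, adjusted p = 0.529), while Nr1h4 rose by 1.18 in Hyper against -VE (SE 0.26, adjusted p = 0.00511). Nr0b2 in stem cells was 4.11, 3.81 and 5.37 CPM in ENR, 4.42 and 2.21 in -VE and 6.41, 9.32 and 8.88 in Hyper libraries, the Hyper libraries being the highest. Nr0b2 rose by 1.21 in Hyper against -VE (SE 0.30, adjusted p = 0.00965) and was 0.80 higher against ENR, under 2-fold (SE 0.28, adjusted p = 0.0392). Both calls against -VE were lost without -VE 2, at 0.80 for Nr1h4 (adjusted p = 0.0503) and 0.76 for Nr0b2 (adjusted p = 0.0831).

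No Fgf15 UMI was found in 868 ENR stem cells, against 19 in 1716 -VE and 55 in 3481 Hyper stem cells. It passed the filter on low counts only through the Hyper libraries, so its values are a description with no test. Set against the limit of 3 counts over the ENR group, the observed Fgf15 level was 4.37-fold higher in Hyper and 3.04-fold higher in -VE stem cells. These values allow for counting error in ENR only. They leave out the counting error of the Hyper and -VE UMIs and the spread between libraries. Apart from Fgf15, 2 of 5 members tested in stem cells were called in Hyper against ENR, both lower, where 2.8% and 15.2% of genes were called lower and higher. In Hyper against -VE 3 were called, 1 lower (Fabp6, as against ENR) and 2 higher, beside 1.76% and 14.7% of genes. None was called in -VE against ENR with edgeR, where 0.273% and 0.23% of genes were called; leaving out Hyper 1 added Slc51a there (adjusted p = 0.0311).

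In TA cells, the dividing daughters of stem cells, Fabp6 stood at 1.70, 1.66 and 1.90 CPM in ENR, 1.18 and 0.805 in -VE and 0.190, 0.0510 and 0.0447 in Hyper libraries, with no overlap among the media. It fell by 4.20 against ENR (SE 0.46, adjusted p = 9.63e-05) and by 3.38 against -VE (SE 0.48, adjusted p = 0.000640), and by 5.20 and 4.40 without Hyper 1. In Hyper against ENR TA cells Slc51a fell by 2.91 (adjusted p = 0.00137; -3.59 without Hyper 3) and Slc51b by 1.19 (adjusted p = 0.0313). Slc10a2 passed the filter on low counts only through ENR libraries, so its value of -3.29 (-3.89 without Hyper 3) is a description with no test. It rests on 28 UMIs in 2764 ENR and 4 in 3900 Hyper TA cells, and its ENR mean of 0.193 CPM lies near that of ENR goblet cells, 0.131 from 2 UMIs, so it is not read as expression by TA cells. The Slc51b mean was 0.674 CPM in ENR and 0.331 in Hyper TA cells, the second below the Hyper goblet mean. The Slc51b call was lost without ENR 2, ENR 3, Hyper 1 or Hyper 2 (adjusted p = 0.118, 0.0651, 0.0857 and 0.101). Nr0b2 rose by 1.30 in TA cells (SE 0.32, adjusted p = 0.00855; 1.93 with thinned cells), and Nr1h4 and Fgf15 had values of -0.15 and 0.07.

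Against -VE TA cells Nr0b2 rose by 1.29 (adjusted p = 0.0183), a call lost without -VE 2 (0.73, adjusted p = 0.0676), with 2.12 without -VE 1. Slc10a2, which passed the filter only through ENR libraries, differed by -2.41 from 18 UMIs in -VE and 4 in Hyper TA cells, a description with no test, and its -VE mean of 0.109 CPM stood beside 0.120 in -VE goblet cells. Nr1h4 was 0.84 higher (adjusted p = 0.000846), under 2-fold. Apart from Slc10a2, 4 of 6 members were called in Hyper against ENR, 3 lower and 1 higher, beside 3.78% and 17.2% of genes, and 2 in Hyper against -VE, 1 lower and 1 higher, beside 2.32% and 15.5%. In -VE against ENR none was called with edgeR, beside 0.337% of genes lower and 0.694% higher, the nearest being Slc51a (-2.51, adjusted p = 0.0531) and Nr1h4 (-0.99, adjusted p = 0.00834, under 2-fold). With culture series as a block both were called there, Slc51a at -2.23 (adjusted p = 0.0283) and Nr1h4 at -1.03 (adjusted p = 0.00947).

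In goblet cells only Nr1h4 and Nr0b2 passed the filter on low counts, Nr0b2 only through the Hyper libraries, so its values are a description with no test. From 3, 1 and 2 UMIs in ENR, 5 and 8 in -VE and 46, 28 and 18 in Hyper libraries, Nr0b2 stood at 0.853, 0.196 and 0.583 CPM in ENR, 0.735 and 0.639 in -VE and 7.54, 4.40 and 3.80 in Hyper goblet cells, and the Hyper libraries lay well apart from the rest. The fitted difference was 3.24 against ENR (SE 0.53), where 10.7% of genes were called higher and 2.64% lower, and 2.88 against -VE (SE 0.48), where 8.72% were higher and 1.15% lower. With cells thinned to 10000 UMIs Nr0b2 no longer passed the filter. Its mean in Hyper goblet cells was 5.25 CPM, beside 6.76 over whole Hyper libraries. The part of free RNA in that goblet level was not tested. Nr1h4 was the single member tested in enteroendocrine cells and was not called with edgeR. In Hyper against ENR 1.44% of genes were called lower and 5.96% higher in those cells, in Hyper against -VE 0.489% and 3.52%, and in -VE against ENR 0.0724% and 0.118%. Neither gene was called in -VE against ENR goblet cells, where 0.606% of genes were lower and 0.529% higher.

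In enterocytes, the absorptive cells that carry the transport genes, only Hyper 2 and Hyper 3, with 58 and 21 enterocytes, entered the fit. Slc51a stood at 59.1, 61.7 and 62.2 CPM in ENR, 22.2 and 17.2 in -VE and 46.7 and 18.5 in Hyper 2 and Hyper 3. Slc51b stood at 28.1, 27.7 and 27.0 CPM in ENR, 11.2 and 6.06 in -VE and 20.1 and 10.3 in these Hyper libraries. Every ENR library was above the rest for both genes, and the Hyper libraries differed more from each other than the ENR libraries did.

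In -VE against ENR enterocytes Slc51a fell by 1.70 (SE 0.22, adjusted p = 0.00261), Slc51b by 1.76 (SE 0.24, adjusted p = 0.00311) and Slc10a2 by 2.51 (SE 0.54, adjusted p = 0.0196). These 3 members were called lower where 1.9% of genes were, and none was called higher, where 1.44% were. The Slc10a2 levels were 4.35, 4.27 and 3.06 CPM in ENR and 0.472 and 0.884 in -VE enterocytes, and its call was lost without ENR 1, ENR 2, -VE 1 or -VE 2 (adjusted p from 0.0660 to 0.102). Fabp6, at 2.24, 1.87 and 1.86 CPM in ENR and 1.26 in both -VE libraries, differed by -0.70, a description with no test, since it passed the filter on low counts only through ENR enterocytes.

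No member was called in Hyper against ENR enterocytes with edgeR, where 3.08% of genes were called lower and 7.78% higher. Slc51a differed by -0.79 (adjusted p = 0.0481, under 2-fold), Nr1h4 by 0.63 (adjusted p = 0.0231, under 2-fold) and Slc51b by -0.76 (adjusted p = 0.0870). Fabp6, with no UMI in Hyper 2 (which allows up to 1.23 CPM) and 1.03 CPM in Hyper 3, differed by -2.70, a description with no test, for the reason given above. Slc51a was called without Hyper 2 (-1.77, adjusted p = 0.00466). That fit rests on 1 Hyper library, which is assumed to vary as the other groups do. Against -VE enterocytes Slc10a2 rose by 2.83 (SE 0.73, adjusted p = 0.0306), 1 member called higher beside 5.12% of genes (1.75% lower), from 6 UMIs in 4 cells of Hyper 2 and 10 UMIs in 2 cells of Hyper 3. That call was lost without ENR 1, -VE 1, -VE 2 or Hyper 3 (adjusted p from 0.0502 to 0.138) and under the block (2.79, adjusted p = 0.0611). In the same contrast Slc51b (1.53) and Nr1h4 (1.07) were called without -VE 1, Nr1h4 under the block (1.10, adjusted p = 0.00352), and Slc51a, Slc51b and Nr1h4 without Hyper 3.

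Enterocyte progenitors could be compared only between -VE- and ENR-organoids, since Hyper libraries held at most 3 of them. Slc51a stood at 7.29, 8.71 and 8.88 CPM in ENR and at 1.92 and 1.61 in -VE progenitors, well apart. It fell by 2.23 (SE 0.25, adjusted p = 0.00894), 1 member called lower where 0.247% of genes were (0.206% higher), and by 2.92 with thinned cells, where it did not pass (adjusted p = 0.0558). Fabp6 in the same cells was 2.50, 2.02 and 2.44 CPM in ENR and 2.68 and 1.29 in -VE, and the ranges overlapped.

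**Figure D3:**
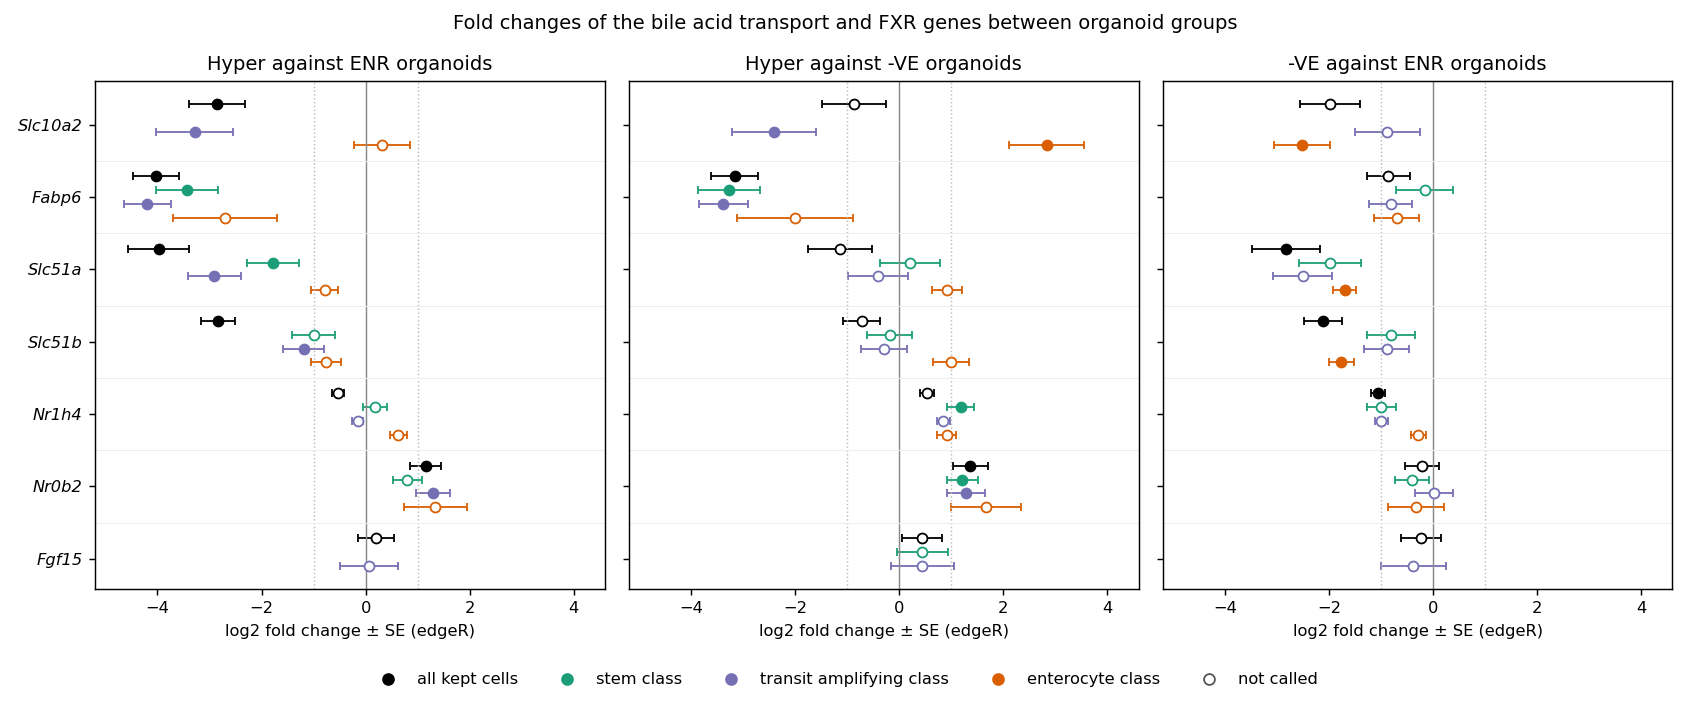
Log2 fold change with SE from edgeR for each gene over all kept cells and within stem, TA and enterocyte classes, one panel per comparison; filled points were called, open points were not, and dotted lines mark 2-fold. Fabp6 in Hyper against ENR lies at -4.03 over all cells, -3.44 in stem and -4.20 in TA cells; Fgf15 in stem cells against ENR, with 0 UMIs in ENR, is left out, and Slc10a2 in TA cells and Fabp6 in enterocytes passed the filter on low counts only through ENR libraries.

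Across 50 sums of class and library, the levels of both exporter subunits ran together (Pearson r = 0.905 on the log2 scale), and Slc51a and Fabp6 less so (r = 0.575). These points share libraries and classes and are not independent, so the values are descriptions. Among the genes most like Slc51a were Ugt2b5 (0.97) and Gm21885 (0.94), and among those most like Slc51b were Dpep1 (0.95) and Cyp2j6 (0.95). Slc10a2 was nearest to Cyp3a13, Sec23a and Slc51b (each 0.85), and Nr1h4 to Cyp3a13 (0.87), AA986860 (0.86) and Ccdc71l (0.86). Fabp6 was nearest to Kcnk10 (0.82), Pycard (0.80) and Rbp7 (0.79), of which Pycard and Rbp7 are also progenitor markers. Nr0b2 was nearest to Sept6 (0.86), Lhpp (0.86) and Clic6 (0.85), and its r with Slc10a2, Fabp6, Slc51a and Slc51b was -0.013, 0.056, 0.062 and 0.077. The nearest genes to Fgf15 were Emp1 (0.72), Tgfbr2 (0.68) and Aprt (0.68), at lower r than for the other members.

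Other genes of bile acid biology were read from a list of 35, of which 31 were tested over all kept cells. In Hyper- against ENR-organoids 6 rose and 6 fell, with a list median of -0.45, where 18.2% of all genes were called higher and 4.75% lower. Cyp7b1, among the 6, passed the filter on low counts only through Hyper libraries. Among those that rose, Klb, the coreceptor for Fgf15, changed by 2.69, its receptor Fgfr4 by 1.16, the sterol hydroxylase Cyp27a1 by 2.12, the exporter Abcc4 by 1.70 and the lipid receptor S1pr2, which also senses conjugated bile acids, by 1.37. Cyp7b1, an oxysterol hydroxylase of the alternative pathway of bile acid synthesis, had 0 UMIs in ENR, 2 in -VE and 71 in Hyper libraries. Set against a limit of 3 counts over the ENR group, the observed Hyper level was 19.7-fold higher. That value is a description with no test and leaves out the counting error of the Hyper UMIs. The list members that fell were Slc27a5, a bile acid CoA ligase (-3.26), the detoxifying enzymes Cyp3a11 (-3.16) and Cyp3a13 (-1.67), the apical exporter Abcc2 (-1.86), and the nuclear receptors Ppara (-1.82) and Nr1h3 (-1.44). Within stem cells 4 of 28 list members tested rose and 4 fell, including Klb and Slc27a5, which passed the filter through 1 group alone, beside 15.2% of all genes higher and 2.8% lower, and within enterocytes 3 of 24 rose and 1 fell, beside 7.78% and 3.08%. Nr1h3 fell in stem cells (-1.09) and enterocytes (-1.57), Ppara and Cyp3a11 fell in stem cells (-1.02 and -1.86) but were 0.25 and -0.031 in enterocytes and not called, and Cyp3a13 was 0.42 and 0.34 and not called in either class. Abcc2 was -0.52 and -0.74 and Fgfr4 0.46 and 1.75, neither called in stem cells or enterocytes. Cyp27a1 (1.74 and 2.48) and Abcc4 (1.25 and 3.25) rose in both, and S1pr2 was 0.68 and not called in stem cells and 2.35 in enterocytes, where it passed the filter only through Hyper libraries. Counts of called list genes that include a gene passing through 1 group alone are a description with no test.

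Against -VE-organoids 3 list members were called higher, namely Cyp7b1, which is given without a test as above, Cyp27a1 (2.78) and Klb (2.46), and 3 fell, namely Slc27a5 (-2.10), Abcc2 (-1.16) and Ppara (-1.12), with a median of -0.24, beside 16.1% of all genes higher and 2.51% lower. Stem cells had 4 of 28 list members called higher and 1 lower, beside 14.7% and 1.76% of genes. Among these were Klb (2.48) and Slc27a5 (-2.98), which passed the filter there through 1 group alone, so the stem cell counts are a description with no test. Enterocytes had 3 of 24 higher and 0 lower, beside 5.12% and 1.75%. Within classes Cyp27a1 rose in stem cells (2.98) and enterocytes (2.38), Cyp3a13 rose in both (1.10 and 1.03), and Ppara was 0.41 and not called in enterocytes. The Cyp7b1 ratio to -VE was 27.9 (95% counting interval 7.45 to 235). In -VE- against ENR-organoids Abcc4 rose by 1.20 and Cyp3a13 fell by 1.38, with a median of -0.19, beside 1.35% of all genes higher and 1.2% lower. Within classes Cyp3a13 was -0.69 in stem cells and -0.70 in enterocytes and not called, Abcc4 rose in enterocytes (2.12), Cyp27a1 fell in stem cells (-1.25) and Nr1h3 fell in enterocytes (-1.25). Proximal enterocyte genes (10 tested) had 5 lower and none higher in Hyper against ENR, led by Rbp2 (-3.46), Slc2a2 (-3.18) and Fabp1 (-2.30), where 4.75% of all genes were lower and 18.2% higher. Over all cells 1 was lower (Rbp2) in Hyper against -VE, beside 2.51% of genes, and 1 (Slc2a2, -2.31) in -VE against ENR, beside 1.2%. The direction in Hyper against ENR differed between classes. Stem cells had 4 higher and 1 lower of 9 tested (median 1.34, beside 15.2% of genes higher) and enterocytes 2 higher and 0 lower of 10 (median 0.17, beside 7.78%). Goblet cells had 0 higher and 4 lower of 8 (median -1.53, beside 2.64% of genes lower). Enteroendocrine cells had 0 higher and 2 lower of 6 (median -0.91, beside 1.44%). TA cells had 1 higher and 1 lower of 9 (median -0.098, beside 17.2% higher and 3.78% lower). Of 5 distal enterocyte genes other than the members, Clec2h fell by 3.78 over all cells in Hyper against ENR (beside 4.75% of genes lower). The vitamin B12 receptor gene Cubn passed the filter only through Hyper libraries, and its differences of 4.45 against ENR and 4.21 against -VE are a description with no test. Against -VE, Mep1a (1.47) and Amn (1.05) rose and Guca2a fell by 1.10 (beside 16.1% of genes higher and 2.51% lower). In -VE against ENR none was called over all cells with edgeR (beside 1.35% higher and 1.2% lower). In enterocytes, where 4 were tested, 3 were lower in -VE against ENR (median -1.62, beside 1.9% of genes lower). There 1 was lower and 0 higher in Hyper against ENR (beside 3.08% and 7.78% of genes), and 3 were higher in Hyper against -VE (beside 5.12%). Among the fatty acid binding relatives of Fabp6, 4 of 7 were tested over all kept cells. Fabp1 and Fabp2 (-2.15) fell in Hyper against ENR (beside 4.75% of genes lower), and Fabp2 (-1.30) fell in Hyper against -VE (beside 2.51%). None was called in -VE against ENR (beside 1.35% higher and 1.2% lower), where Fabp2 was -0.85 (adjusted p = 0.00811, under 2-fold). In enterocytes, where 3 were tested, 0 were called in Hyper against ENR, beside 7.78% of genes higher and 3.08% lower. There 1 was lower in -VE against ENR (beside 1.9% of genes), and 2 were higher and 1 lower in Hyper against -VE (beside 5.12% and 1.75%). In stem cells 1 was higher and 1 lower in Hyper against ENR among 4 tested, beside 15.2% and 2.8% of genes. Of these 4, Fabp3 passed the filter only through Hyper libraries.

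In colonic crypts, where bile acids that escape the ileum arrive, the transporters and receptor were present and Nr0b2 nearly absent. Slc10a2 stood at 13.6 CPM in normal and 13.8 in DSS colon, Fabp6 at 39.0 and 21.4, Slc51a at 96.5 and 85.6, Slc51b at 107 and 69.3, and Nr1h4 at 75.7 and 70.9. Nr0b2 had 1 UMI in normal and 4 in DSS colon, and Fgf15 had 11 and 13. Each group is 1 library, so intervals cover counting error only and no test was made.

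The ratio of DSS to normal was 1.01 for Slc10a2 (95% interval 0.871 to 1.19), 0.547 for Fabp6 (0.493 to 0.607), 0.887 for Slc51a (0.836 to 0.940), 0.646 for Slc51b (0.608 to 0.686), 0.937 for Nr1h4 (0.878 to 1.00) and 0.726 for Fgf15 (0.300 to 1.79). Of the 5 members with at least 1 CPM in either library, 0 were past 2-fold after adding 1 CPM, as 5.08% of 12440 such genes were. Summed leukocyte markers were 114 CPM in normal and 982 in DSS colon, and colonocyte markers 6773 and 5294. Without cells holding a Ptprc UMI, Fabp6 was 40.8 and 22.6 CPM, Slc51b 112 and 72.8, Slc51a 101 and 90.5, and Nr1h4 78.4 and 74.7. Of the normal Fabp6 UMIs, 264 came from 1 cell (the next held 70), and without the top cell of each library Fabp6 was 25.8 and 20.4 CPM.

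The authors' colonic clusters carry numbers, with a name only for cluster 2 (stem), and are called by number here. Cluster 6 held 63.3% of the Slc10a2, 57.9% of the Fabp6, 56.3% of the Slc51a and 27.4% of the Slc51b UMIs of normal colon. Of its 450 Fabp6 UMIs there, 264 came from 1 cell, while cluster 1 held 190. DSS cells of cluster 1 held more Fabp6 UMIs than those of cluster 6, with 217 against 184. For Slc51b, cluster 3 held more UMIs of normal colon than cluster 6, with 979 against 584. Cluster 6 (64 normal and 157 DSS cells, median 23255 and 22310 UMIs) had colonocyte marker sums of 32217 and 23329 CPM. Slc51a was 729 CPM in normal and 479 in DSS cells of cluster 6 (ratio 0.657, 0.608 to 0.710), Slc51b 393 and 288 (0.733, 0.661 to 0.814), and Slc10a2 115 and 79.1 (0.687, 0.565 to 0.838). Nr1h4 changed less, from 197 to 177 CPM (0.900, 0.781 to 1.04). Fabp6 went from 303 to 54.7 CPM, or from 129 to 45.6 without the top cell of each library. Slc51a UMIs were found in 63 of 64 normal and 138 of 157 DSS cells of cluster 6.

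Cluster 1 (95 normal and 207 DSS cells) had lower CPM of Slc10a2, Slc51a and Slc51b than cluster 6 in both libraries. Its Fabp6 CPM was also lower, but a Fabp6 UMI was found in 30.5% of its normal and 27.5% of its DSS cells against 15.6% and 19.1% in cluster 6, or 10.7% and 11.5% against 12.96% and 8.80% of cells thinned to 5000 UMIs. Slc51a was 227 and 132 CPM (ratio 0.581), Slc51b 136 and 80.6 (0.591), Fabp6 78.3 and 39.3 (0.502), Nr1h4 183 and 125.2 (0.683) and Slc10a2 13.2 and 9.24 (0.701, 0.442 to 1.13). Its colonocyte marker sums were also lower in DSS, at 12295 and 8005 CPM, and their part in these ratios was not tested. Fgf15 in cluster 1 came from 11 UMIs in 6 normal cells and 3 UMIs in 2 DSS cells.

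**Figure D4:**
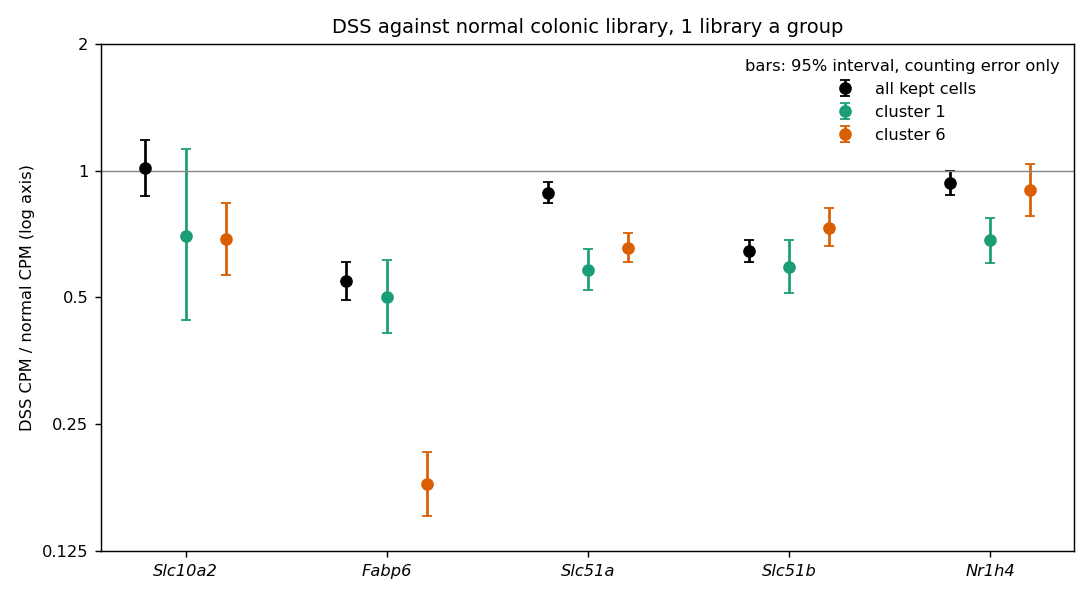
Ratio of DSS to normal colonic crypts (log axis) for 5 genes over all kept cells, in cluster 1 and in cluster 6, with 95% counting intervals; the line marks equal levels. Slc51b lies under 1 in all 3 settings, at 0.646, 0.591 and 0.733, whereas Slc10a2 is 1.01 over all cells and under 1 in cluster 6.

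The balance of the exporter subunits differed between clusters. The ratio of Slc51b to Slc51a UMIs, which is compared between cells and does not rank the genes, was 0.539 in normal and 0.602 in DSS cells of cluster 6, whereas in cluster 3 (274 normal cells, colonocyte markers 7271 CPM) Slc51a was 36.2 and Slc51b 162 CPM, a ratio of 4.49. In cluster 12 (93 normal cells of median 5847 UMIs, colonocyte markers 10771 CPM) 140 UMIs of Slc51b stood beside 2 of Slc51a, and Slc10a2 and Fabp6 had none, which allows up to 4.81 CPM of each, while Nr1h4 was 99.3 CPM. Clusters 3 and 12 held 1 DSS cell each. Among clusters made up mostly of DSS cells, cluster 7 (139 cells) had 7.80 CPM of Slc51a and 117 of Slc51b, and cluster 9 (108 cells) had 47.7 and 98.2. With 1 library per group, a cluster held mostly by 1 library and that library cannot be told apart. Cluster 17 (57 DSS cells of median 2466 UMIs) had the highest Slc51a among clusters of at least 20 cells, at 860 CPM from 162 UMIs, with Slc51b at 478 and Slc10a2 at 377 from 71 UMIs.

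**Figure D5:**
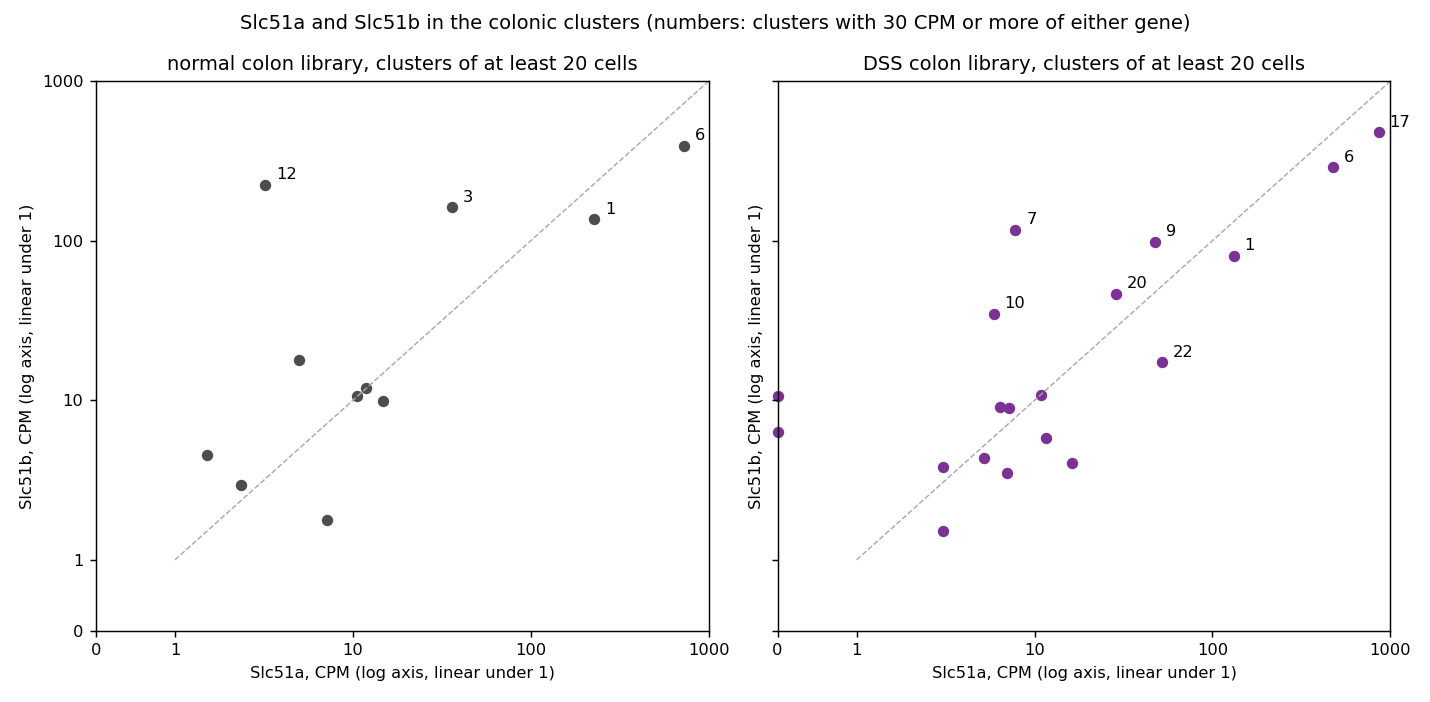
Slc51a against Slc51b (CPM, log axes, linear under 1) in each colonic cluster with at least 20 cells of a library; each point is a cluster in 1 library, and numbers name clusters with 30 CPM or more of either gene. The dashed line is a guide to the eye at a ratio of 1, and from cluster 6, at 729 and 393 CPM in normal colon, clusters 3, 7 and 12 differ by a higher ratio of Slc51b to Slc51a.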

How the data were processed

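Single-cell RNA-seq counts were deposited by the authors as UMI counts per gene and barcode for each library, with a table of kept cells and their classes. The submitters' processing notes name Cell Ranger 3.0.0, Seurat 3.1.4 and mm10, while the file header gives Cell Ranger 3.1.0. The methods state bounds of 1500 genes and 25% mitochondrial reads, whereas kept cells reached down to 501 genes (1375 under 1500 genes) and up to 20% mitochondrial UMIs. The 7 genes were read from the matrices, and in the deposited count table for the kept cells 0 of 176428 entries of the members differed. Columns without a sample numbered 0.

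UMIs were summed over kept cells per library, and per class with at least 20 cells. Kept libraries held 19906845 to 170019527 UMIs. Sums were tested with edgeR 4.0.16 (R 4.3.3, TMM, filterByExpr, quasi-likelihood F test over all 8 organoid libraries, Benjamini-Hochberg adjustment over all genes), and calls needed adjusted p under 0.05 and 2-fold. A member or named list gene that passed the filter only through 1 group is given without a test. DESeq2 1.42.0 was an alternative. Python 3.11.15, scipy 1.17.1 and matplotlib 3.10.9 were used for levels, exact Poisson intervals at 95% and figures. Shares of cells were also computed after thinning to 10000 UMIs (5000 in colon). No doublet caller was run, and an alternative left out the 5% of cells with most UMIs. The scripts were tested on simulated data.

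Culture series were inferred from the sample codes in the titles and used as a block in an alternative. Deviations of same-series libraries correlated at 0.192, 0.170 and 0.436 (ENR with Hyper), 0.161 and 0.0617 (ENR with -VE) and 0.139 and 0.115 (-VE with Hyper). Between different series the values ran from -0.292 to 0.129 (ENR with Hyper), -0.161 to 0.0830 (ENR with -VE) and -0.139 to 0.0482 (-VE with Hyper). The deviations of both -VE libraries mirror each other, so their values are not independent. The members and gene lists were chosen with earlier results of these data known. All 7 members were named in every comparison over all kept cells, and within classes not every tested member was. Of the pathway list, genes called in an all-cell contrast were named, of other lists up to 3 by fold change, and the 3 genes most like each member by Pearson correlation of log2(CPM + 1). One gene that this last rule selects is not reported here.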

Additional observations from a re-analysis of the deposited data

Results flagged for a closer look

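In some cases the members moved in opposite directions in the culture series, a difference that was not tested. For Slc51b the log2 ratio of Hyper to -VE was -1.69 in series 2 and 0.18 in series 6, and for Nr0b2 the ratio of -VE to ENR was 0.25 and -0.72. Fgf15, from few UMIs, had log2 ratios of Hyper to ENR of 0.83, -0.072 and 0.40 in series 2, 6 and C, and of -VE to ENR of 0.49 and -0.40 in series 2 and 6. Every group held 3 libraries or fewer, so no test for an outlying sample was made.

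Members were also present in barcodes that the authors left out, and their levels there are given without a test. Slc51a was at 164 CPM in the left-out barcodes of DSS colon, against 147 in those of normal colon, with 1 library each. Kept cells had the other order, with 85.6 CPM in DSS and 96.5 in normal colon. Nr0b2 was at 2.93 CPM in the left-out barcodes of Hyper 2 and 2.63 in those of Hyper 3, against 0.721 to 1.20 in those of ENR libraries. Its values in the left-out barcodes of Hyper 1 and the -VE libraries are not given here, so these levels are not read as a trait of the medium.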

How the results depend on the processing

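Over all kept cells the members were recomputed in 378 combinations of contrast, gene and setting, of which 341 kept direction and side of the threshold, 10 lost a call, 8 gained one, 15 untested values moved, 2 of them with a change of sign, and 4 others changed sign. Within classes 474 of 527 were the same, 21 lost and 16 gained a call and 16 changed sign, and in colon 24 of 28 were the same. Leaving out single libraries, within classes an alternative added after seeing the data, gave 5 to 5, 1 to 3 and 0 to 4 members called over all cells (Hyper against ENR, Hyper against -VE, -VE against ENR), 2 to 3, 1 to 3 and 0 to 1 in stem, 3 to 5, 1 to 3 and 0 to 1 in TA cells, and 0 to 1, 0 to 3 and 2 to 3 in enterocytes. These counts include Fgf15 in stem cells, Slc10a2 in TA cells and Fabp6 in enterocytes, which passed the filter through 1 group. Counts of called members in this paragraph have no share of all genes under the same setting beside them. They describe how calls depend on the settings and are not set against a background. Thinning cells to 10000 UMIs left 3 members called in Hyper against ENR and 1 in -VE against ENR TA cells, 0 and 0 in goblet cells (Hyper against ENR and against -VE) and 0 in progenitors, where fewer UMIs entered the test. With culture series as a replicate block, 2 members were called in -VE against ENR TA cells, Fgf15 in -VE against ENR over all cells was 0.018 in place of -0.23, and 88 of 94 block values were the same.

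With stem, TA, goblet and enteroendocrine classes weighted equally, log2(CPM + 0.1) differed between Hyper- and ENR-organoids by -1.38 for Slc10a2, -2.41 for Fabp6, -1.84 for Slc51a and -0.43 for Slc51b. They were -1.66 for Fabp6, -0.14 for Slc51a and 0.29 for Slc51b between Hyper and -VE, and -1.70 for Slc51a, -0.72 for Slc51b and 0.44 for Fgf15 between -VE and ENR. In colon, all barcodes gave log2 ratios of DSS to normal of -0.49 for Slc10a2, -0.63 for Fabp6 and -0.79 for Slc51b, and Fabp6 was -0.33 without the cell holding most of its UMIs, an alternative added after seeing the data.

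Signs changed only for differences that were not called. Over all cells the leave-one-out values ran from -0.068 (without ENR 1) to 0.44 for Fgf15 in Hyper against ENR, and from -0.95 to 0.27 (without -VE 2) for Nr0b2 in -VE against ENR. In stem cells they ran from -0.091 (without Hyper 3) to 0.64 for Slc51a and from -0.64 to 0.38 (without -VE 1) for Slc51b in Hyper against -VE, and from -0.95 to 0.057 (without -VE 2) for Nr0b2 in -VE against ENR. In TA cells they ran from -0.38 (without ENR 1) to 0.48 for Fgf15 in Hyper against ENR, from -1.08 to 0.045 (without Hyper 1) for Slc51a in Hyper against -VE, and in -VE against ENR from -0.82 (without -VE 1) to 0.58 for Nr0b2 and from -0.85 to 0.043 (without ENR 2) for Fgf15. In enterocytes they ran from -0.71 (without Hyper 3) to 1.35 for Slc10a2 in Hyper against ENR, from -0.064 (without Hyper 2) to 1.29 for Slc51a in Hyper against -VE, and from -1.35 to 0.32 (without -VE 2) for Nr0b2 in -VE against ENR. The cause was not tested. Depth limits Fgf15 and Slc10a2, with 293 and 263 UMIs over the organoid libraries.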

Other observations

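The barcodes left out of the authors' classes held members too. Slc10a2 was at 59.8 CPM (868 UMIs) in the left-out barcodes of normal colon and at 43.8 CPM (663 UMIs) in those of DSS colon, beside 13.6 and 13.8 in kept cells. In ENR libraries Slc51a was at 18.8, 24.4 and 22.2 CPM in left-out barcodes, beside 7.34 to 10.7 in kept cells, and Slc10a2 at 2.00, 3.61 and 2.17 CPM, beside 0.525 to 0.732. In these libraries the left-out barcodes were richer in both transporter transcripts than the kept cells.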
